A study of Mus musculus with 12 samples.

Results

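Serpina10, Nuak2, Spns3, Npl and Pklr are 5 of the 25553 genes in a table of mouse kidney expression. They were chosen from the measured values: the mean of each in preconditioned, injured kidneys lay above the means of both the injured kidneys without preconditioning and the preconditioned kidneys without injury. The differences that chose them are therefore given as descriptions with no test. All 5 passed the filter on low values, an FPKM of at least 1 in at least 3 libraries (fragments scaled by gene length and library depth, so a level per length), which 12357 genes passed. Serpina10 passed through the 6 injured libraries alone, and its 3 preconditioned RIRI libraries would have sufficed.

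The study profiled kidney RNA from 12 WT mice, 3 in each of 4 groups. Hypoxic preconditioning meant breathing 8% oxygen in sessions of 2, 4 and 8 h on successive days, and renal ischemia-reperfusion injury (RIRI) meant clamping both renal pedicles for 45 min and then restoring flow for 12 h before harvest. The groups were normoxic sham (neither treatment), normoxic RIRI (injury alone), preconditioned sham (hypoxia alone) and preconditioned RIRI (both). All libraries carried 1 batch number, and the labels state no strain, sex or age. The libraries held 33035307 to 35632033 reads, as recovered from the steps between FPKM values.

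The 5 genes come from separate pathways. Npl encodes N-acetylneuraminate lyase, which splits the sugar sialic acid into N-acetylmannosamine and pyruvate, and Pklr encodes the liver and red cell pyruvate kinase, which makes pyruvate at the last step of glycolysis. Nuak2 is a kinase of the family of AMP-activated protein kinase, switched on by LKB1, and is known as a target of the transcriptional coactivator YAP. Spns3 belongs to the spinster family of membrane transporters, in which Spns2 exports the lipid sphingosine-1-phosphate. Serpina10 is the protein Z-dependent protease inhibitor, a plasma serpin known mainly from liver that blocks coagulation factors Xa and XIa.

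In each of the 5 genes every preconditioned RIRI library lay above every library of the other groups. Every library lay above every normoxic RIRI library in 5 of 5, as in 27.8% of all tested genes, and above every preconditioned sham library in 5 of 5, as in 40.2%. In the same comparisons limma called 42.1% and 52.4% of all genes in either direction. The rule used both comparisons, and nothing is read from these counts. Among the 12357 tested genes, 3001 (24.3%) met the rule itself, 394 (3.19%) had every preconditioned RIRI library above all others, and 22 (0.178%) also had a mean at least 2 times that of the next highest group. All 5 genes were among those 22, with ratios of 4.96 for Serpina10, 2.20 for Pklr, 2.19 for Spns3, 2.15 for Nuak2 and 2.11 for Npl. The genes just under a ratio of 2 were Prr15 at 1.99, Il17rb at 1.96 and Arhgap15 at 1.95.

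**Figure D1:**
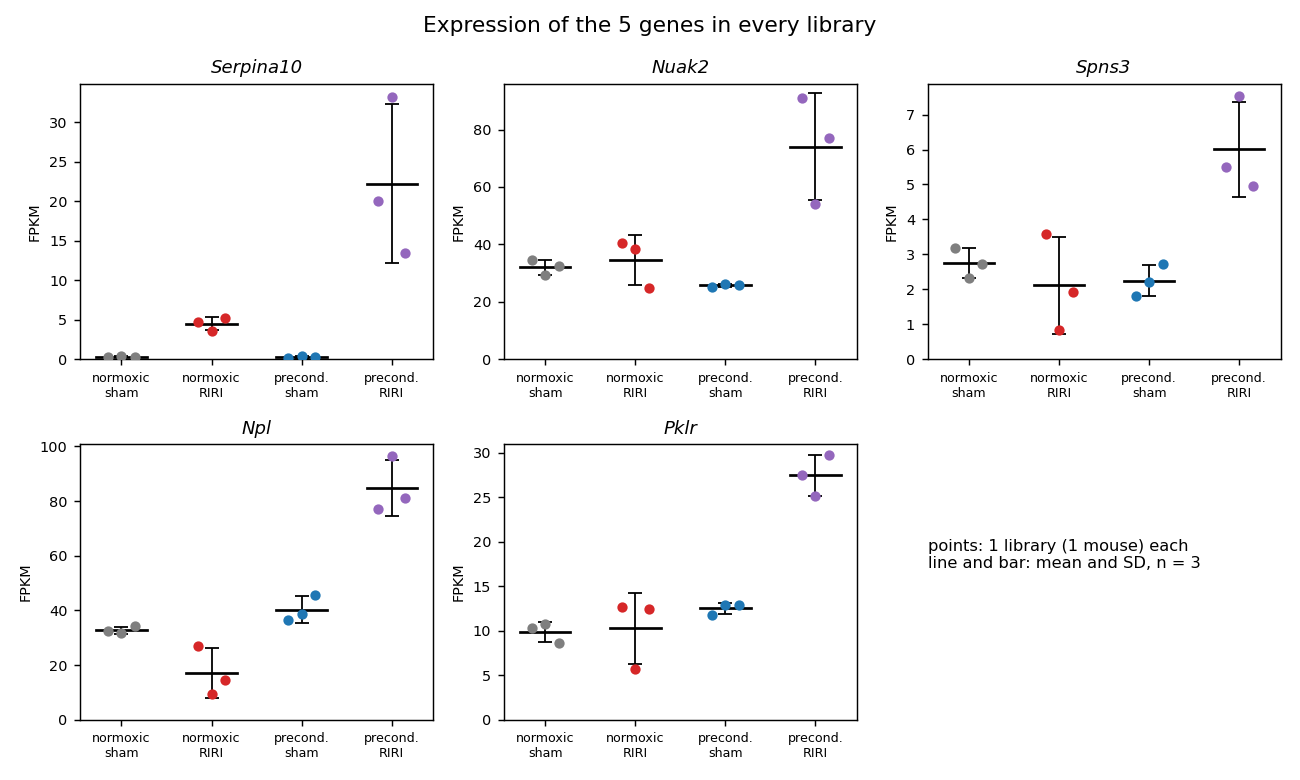
FPKM of each of the 5 genes in every library, by group; the line and bar are the mean and SD of 3 libraries. The preconditioned RIRI points lie above all others in each panel, from 13.4 to 33.2 FPKM for Serpina10 and from 77.1 to 96.3 FPKM for Npl.

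**Figure D2:**
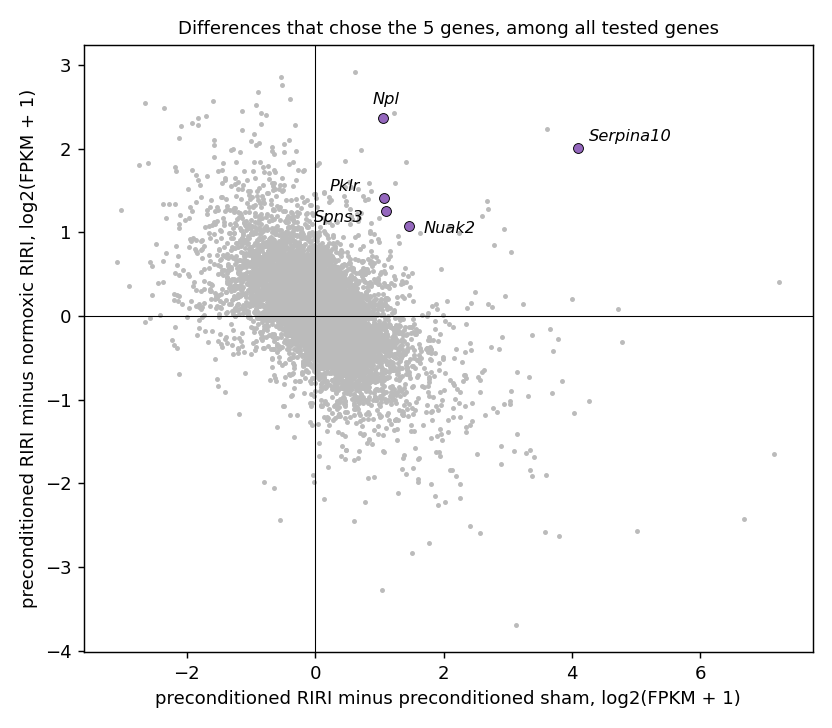
Difference between preconditioned RIRI and preconditioned sham (horizontal) against that between preconditioned RIRI and normoxic RIRI (vertical), both in log2(FPKM + 1), for all 12357 tested genes in grey and the 5 chosen genes in purple. The 5 genes lie where both differences are above 0, as the rule requires, with Serpina10 at 4.09 and 2.00.

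Injury alone and hypoxia alone could be tested. In normoxic RIRI against normoxic sham, 2 of the 5 were called by limma at an adjusted p under 0.05, beside 71.7% of all tested genes: Serpina10 rose, as did 41.6% of all genes, and Npl fell, as did 30.1%. In preconditioned sham against normoxic sham, 0 of 5 were called, beside 0.421% of all genes. That comparison called 52 genes in all by limma and 1726 at an unadjusted p under 0.05, and limma voom on the recovered reads called 62 genes and none of the 5. The libraries of these sham groups did not overlap for 3 of the 5, as for 29.4% of all tested genes: Npl and Pklr were higher after hypoxia, like 23% of genes, and Nuak2 lower, like 6.36%. Both tests share libraries with the rule, the first normoxic RIRI and the second preconditioned sham, so they are not independent of how the genes were chosen.

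Npl lies on the minus strand at chr1:153503016-153549714 (GRCm38.p6, the assembly behind mm10). Its level was 32.6, 31.7 and 34.2 FPKM in normoxic sham, 27.2, 9.44 and 14.7 in normoxic RIRI, 36.5, 38.6 and 45.7 in preconditioned sham and 77.1, 96.3 and 81.2 in preconditioned RIRI. No 2 groups overlapped, in the order preconditioned RIRI, preconditioned sham, normoxic sham, normoxic RIRI. After injury alone the mean fell from 32.8 ± 1.29 to 17.1 ± 9.11 FPKM (SD, n = 3), a log2 difference of -1.02 ± 0.26 (SE; limma adjusted p = 0.00400), lower in 3 of 3 libraries, as in 31.4% of all tested genes. The rule favours low normoxic RIRI values and so this fall, although a normoxic RIRI mean equal to that of normoxic sham would have met it too. The normoxic RIRI libraries were spread widely, with a coefficient of variation of 53.3% against 3.92% in normoxic sham. Hypoxia alone gave a difference of 0.28 ± 0.26 (limma adjusted p = 0.678). Preconditioned RIRI averaged 84.9 ± 10.1 FPKM, 4.96 times normoxic RIRI and 2.11 times preconditioned sham, or 2.36 and 1.06 on the log2 scale.

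Of the 5 genes, 2 had promoter windows in the RefSeq table used (GRCm38.p6), Npl with 1 and Pklr with 2, each of 300 bases from 250 before a start site. They are shown because response elements named below for these genes were searched for in them, on both strands. In the Npl stretch, chr1:153549748-153549777 on the minus strand, the capitals mark an E-box, CACGTG, 51 bases before the start site. The 30 bases shown were cut around this match, because an annotated Npl exon lies further upstream within the window.
Npl: cccgcgcggcccCACGTGgtcccgcagccc
This hexamer occurred in 7.15% of 32851 windows. The shorter core of hypoxia response elements, ACGTG, overlaps it and also matched at 88 bases before the start, and 19.6% of windows held that core. A match describes the letters only.

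Enzymes that act next to Npl were tested in both comparisons of injured kidneys. Neu1, the lysosomal sialidase that frees sialic acid, fell after injury alone from 131 ± 9.26 to 60.1 ± 23.4 FPKM (log2 difference -1.17, limma adjusted p = 0.000497) and was higher in preconditioned RIRI at 96.5 ± 24.1 (0.71 above normoxic RIRI, limma adjusted p = 0.0231). Amdhd2, the deacetylase of N-acetylglucosamine 6-phosphate, and Gne, which starts sialic acid synthesis, also fell after injury alone and were higher in preconditioned than in normoxic RIRI, by 0.66 and 0.32 on the log2 scale (limma adjusted p = 0.0120 and 0.0178). Nagk, the kinase of N-acetylglucosamine, was 0.42 higher (limma adjusted p = 0.0431). These calls were not firm: Neu1 was called in 16 of 21 alternatives, Amdhd2 in 19, Gne in 18 and Nagk in 9. Leaving out replicate 2 or 3 of either injured group each ended 1 or more of them, and limma adjusted p reached 0.0978 for Neu1 and 0.166 for Nagk over the alternatives. Nagk was also lost without normoxic sham replicate 3 and without each preconditioned sham library. The calls of Neu1, Amdhd2, Gne and Nagk were all lost when only the groups compared were fitted. Renbp, which interconverts N-acetylmannosamine and N-acetylglucosamine, was not called, at 61.5 ± 11.5 and 69.6 ± 5.74 FPKM in normoxic and preconditioned RIRI.

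Among 18 tested genes of sialic acid and amino sugar metabolism other than Npl, 6 rose and 9 fell after injury alone, beside 41.6% and 30.1% of all tested genes. In preconditioned against normoxic RIRI, 10 rose and 3 fell, beside 24.7% and 17.4% of all tested genes, shares that apply to the other lists as well, with a median log2 difference of 0.31 against 0.06 over all genes. Siae, the sialic acid acetylesterase, rose from 2.22 ± 0.522 to 6.68 ± 1.22 FPKM (1.26, limma adjusted p = 6.79e-05). Neu2, a cytosolic sialidase, rose by 0.82 and Pgm3, of UDP-N-acetylglucosamine synthesis, by 0.53. Cmas, which activates sialic acid for transfer to glycans, went the other way, from 49.1 ± 2.79 to 27.2 ± 2.12 FPKM (log2 difference -0.83, limma adjusted p = 2.84e-05). Leaving out replicate 2 of normoxic RIRI gave 6 in place of 10, and leaving out replicate 2 of preconditioned RIRI gave 5. After hypoxia alone 0 of these 18 were called.

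Pklr lies on the plus strand at chr3:89136122-89146815. Its level was 10.3, 10.8 and 8.61 FPKM in normoxic sham, 12.7, 5.70 and 12.5 in normoxic RIRI, 11.8, 12.9 and 12.9 in preconditioned sham and 27.5, 25.2 and 29.7 in preconditioned RIRI. The groups other than preconditioned RIRI lay close together, and normoxic RIRI overlapped both sham groups. Injury alone gave a difference of -0.02 ± 0.22 (limma adjusted p = 0.952), and hypoxia alone 0.32 ± 0.22 (limma adjusted p = 0.556). The first of these turned on normoxic RIRI replicate 2, the 5.70 FPKM library: without it the difference was 0.32 (limma adjusted p = 0.0125). Preconditioned RIRI averaged 27.5 ± 2.28 FPKM (SD, n = 3), 2.67 times normoxic RIRI and 2.20 times preconditioned sham, log2 differences of 1.41 and 1.07. The 3′ end of Pklr overlaps Hcn3 on the other strand, and counting by strand is not stated. Hcn3 was at group means of 0.209, 0.288, 0.191 and 0.509 FPKM in normoxic sham and RIRI, then preconditioned sham and RIRI. Its preconditioned RIRI libraries also lay above every normoxic RIRI and every preconditioned sham library. Sharing of reads between Pklr and Hcn3 was not tested.

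Pklr is known to be read from a pair of promoters, the upstream one in red cells and the downstream one in liver and kidney, and gene-level FPKM cannot separate the transcripts. The stretches are chr3:89135892-89136121 and chr3:89136373-89136571, on the plus strand. Capitals mark a GATA site, AGATAA, 35 bases before the first start site and, in the other, a match to the carbohydrate response element, the motif known by that name, 170 bases before its start site.
Pklr upstream: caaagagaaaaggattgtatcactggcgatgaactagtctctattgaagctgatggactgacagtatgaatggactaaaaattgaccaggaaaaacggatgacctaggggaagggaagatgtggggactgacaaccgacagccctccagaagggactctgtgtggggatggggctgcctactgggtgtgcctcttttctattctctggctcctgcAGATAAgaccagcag
Pklr downstream: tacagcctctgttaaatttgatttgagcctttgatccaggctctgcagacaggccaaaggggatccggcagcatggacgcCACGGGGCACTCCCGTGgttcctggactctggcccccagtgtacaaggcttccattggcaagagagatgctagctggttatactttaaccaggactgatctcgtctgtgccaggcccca
The GATA hexamer occurred in 11.2% of all windows and the carbohydrate response element in 15 of them, 0.0457%. Another hypoxia response core (GCGTG, in 32.4% of windows) and an AP-1 site (TGANTCA, in 7.81%) were searched as well. For HNF1 only the hexamer GTTAAT, a part of its site, was searched (in 7.10% of windows). The exact letters of these motifs were not in the windows of either gene. A whole HNF1 site was not tested for, so the missing hexamer does not show that such a site is absent.

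Mlxipl encodes ChREBP, the glucose-responsive factor known to bind that element in the liver. Its level fell after injury alone from 25.8 ± 2.01 to 9.62 ± 1.55 FPKM (log2 difference -1.34, limma adjusted p = 6.5e-06). In preconditioned RIRI it was 23.0 ± 5.01 FPKM, 1.16 above normoxic RIRI (limma adjusted p = 0.000165), and against preconditioned sham the difference was -0.14 ± 0.15 (limma adjusted p = 0.440). Of 18 tested genes of ChREBP and its known targets other than Pklr, 6 rose and 4 fell in preconditioned against normoxic RIRI, with a median of 0.09 against 0.06 over all genes. G6pc, the last enzyme of glucose release, rose by 2.26 and Scd1, a fatty acid desaturase, by 1.38, while Mlxip, the related factor, fell by 0.69. The other genes of the list called lower were Fgf21, Txnip and Arrdc4. G6pc nonetheless stayed far below its sham level, at 66.5 ± 20.6 FPKM against 275 ± 17.5 in preconditioned sham (limma adjusted p = 1.34e-05). In that comparison 33% of all genes were called higher and 19.4% lower.

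Pkm is the pyruvate kinase gene of most other tissues. It rose after injury alone from 43.5 ± 1.78 to 76.2 ± 9.32 FPKM (0.79, limma adjusted p = 1.41e-05), and preconditioned RIRI, at 69.0 ± 4.34, was not called against normoxic RIRI (-0.14 ± 0.10, limma adjusted p = 0.271). Pklr made up 18.5% ± 1.60 of the summed FPKM of both genes in normoxic sham, 11.7% ± 3.71 in normoxic RIRI, 18.8% ± 1.04 in preconditioned sham and 28.5% ± 2.52 in preconditioned RIRI (SD, n = 3). Among 17 tested glycolysis genes other than Pklr, 5 rose and 1 fell in preconditioned against normoxic RIRI, with a median of 0.10, and the share that rose was near that of all genes. Pfkm and Pfkl, of the phosphofructokinase family, rose by 1.08 and 0.50, and Hk2, a hexokinase, fell from 4.37 ± 0.874 to 1.30 ± 0.156 FPKM (log2 difference -1.21, limma adjusted p = 2.9e-05).

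Nuak2 lies on the plus strand at chr1:132316125-132333488. Its level was 34.4, 29.3 and 32.3 FPKM in normoxic sham, 40.4, 38.5 and 24.6 in normoxic RIRI, 25.2, 26.0 and 25.9 in preconditioned sham and 90.8, 54.2 and 77.2 in preconditioned RIRI. Normoxic RIRI spanned the normoxic sham range, and preconditioned sham was the lowest group by its mean, with its libraries within 1 FPKM of each other. Injury alone gave a difference of 0.08 ± 0.19 (limma adjusted p = 0.738) and hypoxia alone -0.30 ± 0.19 (limma adjusted p = 0.525), lower in 3 of 3 libraries. Preconditioned RIRI averaged 74.1 ± 18.5 FPKM (SD, n = 3), 2.15 times normoxic RIRI and 2.88 times preconditioned sham, log2 differences of 1.08 and 1.46. Its paralog Nuak1 was far lower, with group means of 0.945 to 1.28 FPKM, and Nuak2 made up 98.3% ± 0.344 of the summed FPKM of both in preconditioned RIRI.

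Of 20 tested genes of the YAP and TAZ target list other than Nuak2, 17 rose and 0 fell after injury alone. The shares of all tested genes were 41.6% and 30.1%, and the median was 0.89 against 0.10 over all genes. In preconditioned RIRI against preconditioned sham 14 rose and 0 fell, beside 33% and 19.4% of all genes, with a median of 0.51. In preconditioned against normoxic RIRI, 1 rose and 11 fell, with a median of -0.31, and 6 fell without preconditioned RIRI replicate 2. Ccn2, a matrix protein and standard YAP target, was at 249 ± 55.6 FPKM in normoxic RIRI and 65.8 ± 23.1 in preconditioned RIRI (log2 difference -1.94, limma adjusted p = 0.000184). Wwtr1, which encodes TAZ, fell by 0.66 and Yap1 by 0.42. Of 21 tested AMPK-related kinases and LKB1 partners, 13 rose and 4 fell after injury alone, beside 41.6% and 30.1% of all genes. Against preconditioned sham, 9 rose and 1 fell in preconditioned RIRI, beside 33% and 19.4%. In preconditioned against normoxic RIRI 3 rose and 6 fell, beside 24.7% and 17.4%, with a median of -0.06 (3 fell without preconditioned RIRI replicate 2). Stradb, a partner of LKB1, rose by 0.98, and Mark3, a related kinase, fell by 0.49, while Stk11, which encodes LKB1, was not called in that comparison (0.11 ± 0.07, limma adjusted p = 0.244).

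**Figure D3:**
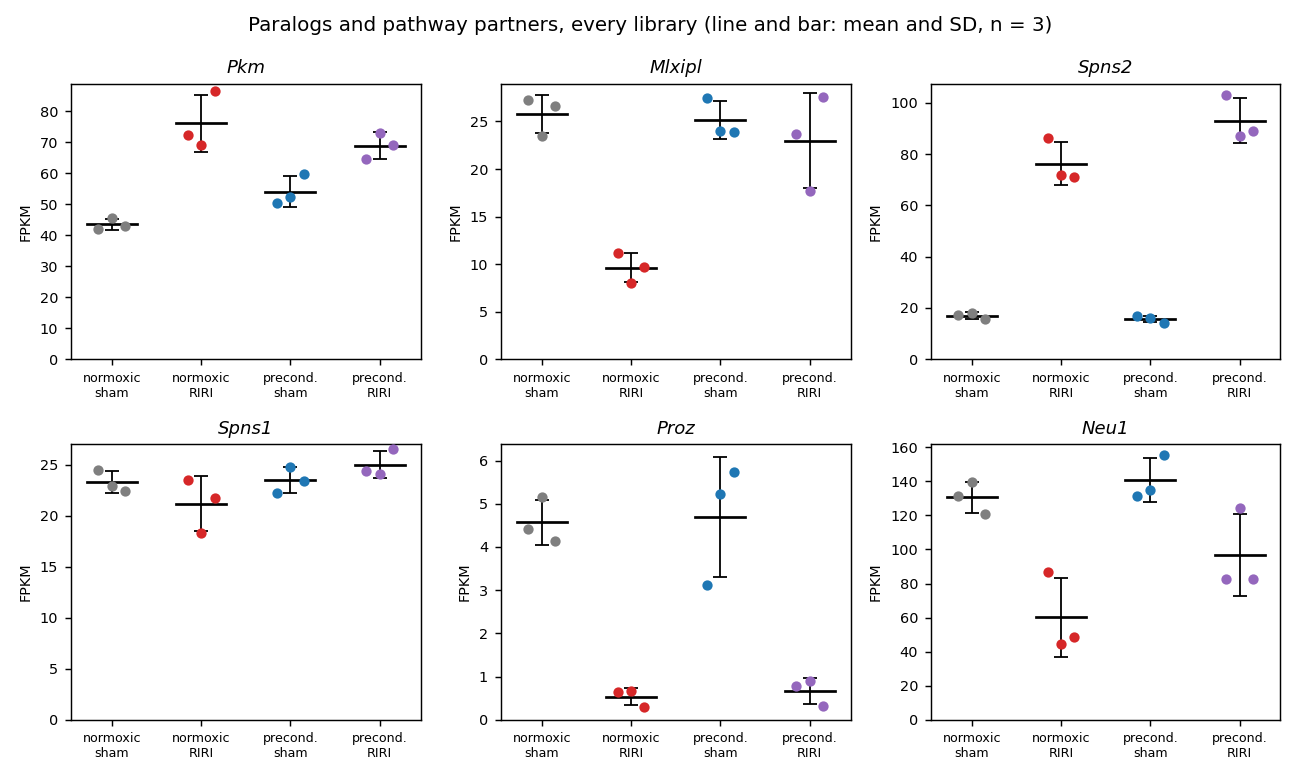
FPKM of 6 paralogs and pathway partners of the chosen genes in every library, by group; the line and bar are the mean and SD of 3 libraries. Mlxipl was lowest in normoxic RIRI, at 9.62 FPKM, Spns2 was high in both injured groups, at 76.3 and 93.1 FPKM, and Proz was low in both, at 0.534 and 0.667 FPKM.

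Spns3 lies on the minus strand at chr11:72498153-72550509. Its level was 3.18, 2.33 and 2.72 FPKM in normoxic sham, 3.58, 0.825 and 1.93 in normoxic RIRI, 1.82, 2.20 and 2.71 in preconditioned sham and 5.51, 7.55 and 4.96 in preconditioned RIRI. The other groups overlapped each other. Injury alone gave a difference of -0.36 ± 0.26 (limma adjusted p = 0.238), and the call turned on normoxic RIRI replicate 1, the 3.58 FPKM library: without it the difference was -0.69 (limma adjusted p = 0.0129). Hypoxia alone gave -0.21 ± 0.26 (limma adjusted p = 0.775). Preconditioned RIRI averaged 6.01 ± 1.36 FPKM (SD, n = 3), 2.84 times normoxic RIRI and 2.68 times preconditioned sham, log2 differences of 1.25 and 1.10.

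Spns2 lies 5.0 kb from Spns3. It was at 16.9 ± 1.32 FPKM in normoxic sham, 76.3 ± 8.57 in normoxic RIRI, 15.7 ± 1.28 in preconditioned sham and 93.1 ± 8.76 in preconditioned RIRI. The rise after injury alone was 2.11 (limma adjusted p = 1.08e-08), and preconditioned RIRI was 0.28 above normoxic RIRI (limma adjusted p = 0.0402), a call kept in 11 of 21 alternatives and lost with either other scaling and on leaving out any of 6 libraries (adjusted p up to 0.167). Spns1, a lysosomal phospholipid transporter, was not called in any of these comparisons, with group means of 21.2 to 25.0 FPKM, although it was called lower after injury alone with median-ratio and with quantile scaling, and higher in preconditioned against normoxic RIRI (main limma adjusted p = 0.0529) in 4 of 21 alternatives: the filter at FPKM 5, quantile scaling, voom, and without normoxic RIRI replicate 1. Spns3 made up 6.39% ± 0.896 of the summed FPKM of the 3 spinster genes in normoxic sham, 2.04% ± 1.13 in normoxic RIRI, 5.42% ± 1.16 in preconditioned sham and 4.87% ± 1.29 in preconditioned RIRI (SD, n = 3), so its share was not highest in the group where its level was. Of 18 tested spinster and sphingosine-1-phosphate genes other than Spns3, 4 rose and 8 fell in preconditioned against normoxic RIRI, with a median of -0.12. The 4 became 1 or 2 without any of 5 libraries, and the 8 became 4 or 5 without normoxic RIRI replicate 2 or 3 or preconditioned RIRI replicate 2. Sphk1, which makes the lipid, was at 46.1 ± 21.9 and 8.58 ± 2.98 FPKM in these groups (log2 difference -2.25, limma adjusted p = 0.000181), and its receptor S1pr1 fell by 1.02.

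Serpina10 lies on the minus strand at chr12:103616675-103631490. Its level was 0.317, 0.376 and 0.247 FPKM in normoxic sham, 4.71, 3.56 and 5.18 in normoxic RIRI, 0.185, 0.388 and 0.266 in preconditioned sham and 20.0, 33.2 and 13.4 in preconditioned RIRI. The sham libraries held only 10 to 21 recovered reads each, against 189 to 281 in normoxic RIRI and 735 to 1865 in preconditioned RIRI. After injury alone it was higher, from 0.314 ± 0.0648 to 4.48 ± 0.835 FPKM (SD, n = 3), a log2 difference of 2.05 ± 0.24 (limma adjusted p = 9.63e-06), higher in 3 of 3 libraries, as in 42.9% of all tested genes. Hypoxia alone gave -0.04 ± 0.24 (limma adjusted p = 0.964). Preconditioned RIRI averaged 22.2 ± 10.1 FPKM, 4.96 times normoxic RIRI, a log2 difference of 2.00. Against preconditioned sham the ratio was 79.4 and the log2 difference 4.09, a scale on which adding 1 understates the change of a gene this low. The same limit holds for injury alone, where the ratio of means was 14.3 and the log2 difference reached 3.80 among the alternatives.

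Proz, which encodes protein Z, the cofactor of this inhibitor, went the other way after injury. It was at 4.57 ± 0.524 FPKM in normoxic sham and 0.534 ± 0.203 in normoxic RIRI (log2 difference -1.87, limma adjusted p = 3.43e-06), and at 0.667 ± 0.308 in preconditioned RIRI (0.11 ± 0.19 from normoxic RIRI, limma adjusted p = 0.671). Among 10 tested plasma serpins and protein Z genes other than Serpina10, 1 rose and 6 fell after injury alone, beside 41.6% and 30.1% of all genes. In preconditioned against normoxic RIRI 5 rose and 1 fell, with a median of 0.74, beside the same 24.7% and 17.4% of all genes. Serpinf2, the plasmin inhibitor, rose in the latter from 53.3 ± 6.60 to 131 ± 23.2 FPKM (1.28, limma adjusted p = 0.000540). Serpina1a, Serpina1b and Serpina1f also rose, but near-identical copies of Serpina1 can share reads. Of 10 tested coagulation genes, 3 rose and 3 fell, with a median of 0.07, among them Tfpi2, a protease inhibitor, by 1.01 upward, and Thbd, the thrombin receptor thrombomodulin, which fell by 1.58.

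**Figure D4:**
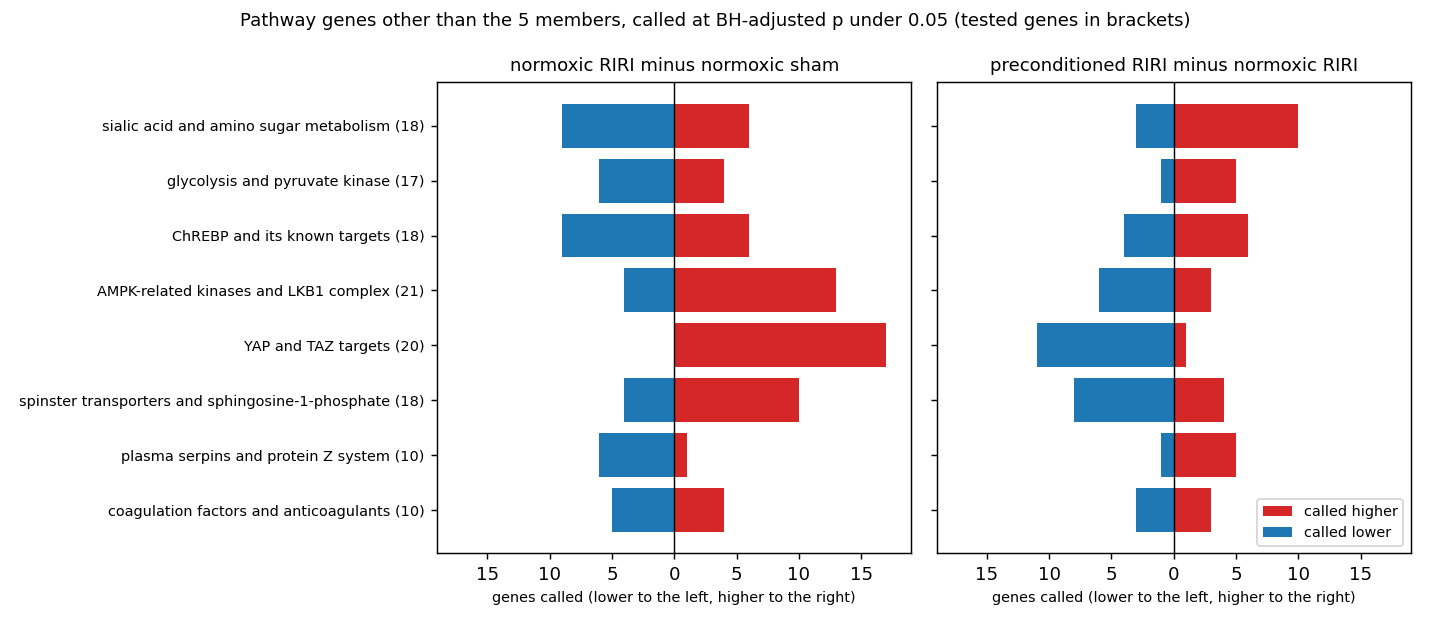
Number of tested genes called higher and lower in each pathway list, the chosen genes left out, by comparison. In preconditioned against normoxic RIRI the sialic acid list has 10 higher and 3 lower, and the YAP list has 1 higher and 11 lower.

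Within the preconditioned RIRI group the 5 genes did not rank the mice alike. Replicate 2 was the highest library for Serpina10, Spns3 and Npl and the lowest for Nuak2 and Pklr. In normoxic RIRI, replicate 2 was the lowest for Serpina10, Spns3, Npl and Pklr, while Nuak2 was lowest in replicate 3.

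For each gene the 3 tested genes most like it by Pearson's r of log2(FPKM + 1) over the 12 libraries were taken, as a description in which all points share libraries and groups. For Serpina10 they were Slc34a2 (r = 0.980), Gstp3 (0.978) and Eprn (0.964). Slc34a2, a phosphate transporter, was at 0.948 ± 0.296, 6.39 ± 2.14, 0.927 ± 0.234 and 14.0 ± 3.46 FPKM in the order normoxic sham and RIRI, then preconditioned sham and RIRI. For Nuak2 they included Krt15 (0.961) and Stx18 (0.904), and for Spns3 they were Coq4 (0.976), Hcfc1r1 (0.929) and B9d1 (0.917). Npl was closest to Gpd1l (0.964), Fuom (0.957) and Bicc1 (0.954), and Pklr to Scfd2 (0.969), Smtnl2 (0.967) and Pcm1 (0.958). No gene was in more than 1 of these sets.

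Of the genes starting within 100 kb of the 5, 21 were tested, and 6 were called higher and 2 lower in preconditioned against normoxic RIRI, beside 24.7% and 17.4% of all genes. Against preconditioned sham 12 were called higher and 0 lower, beside 33% and 19.4%. Around Spns3, Ggt6 rose by 1.10 and Smtnl2 by 0.94 (limma adjusted p = 0.000177 and 0.000581), while Mybbp1a fell by 0.48 and Ube2g1 by 0.45. Klhdc8a, 8.8 kb from Nuak2, rose by 0.28, and Ppp4r4, 1.0 kb from Serpina10, by 0.45, calls kept in 13 of 21 and 14 of 20 alternatives. Of the 10 tested neighbours of Pklr, 0 were called against normoxic RIRI and 6 were called higher against preconditioned sham, and Dhx9, the 1 tested neighbour of Npl, was likewise called higher against preconditioned sham only.

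Markers of the cells a kidney sample could hold moved between the groups as well. In bulk tissue, fewer cells of a type and less RNA per cell cannot be told apart. Of all tested genes, 41.6% were called higher and 30.1% lower after injury alone. The shares were 24.7% and 17.4% in preconditioned against normoxic RIRI, and 33% and 19.4% against preconditioned sham. Of 18 proximal tubule markers, 18 were tested and all fell after injury alone, with summed levels of 49786 to 55089 FPKM in normoxic sham, 19025 to 25018 in normoxic RIRI, 34144 to 39239 in preconditioned sham and 16735 to 22209 in preconditioned RIRI. In preconditioned against normoxic RIRI 10 of them rose and 0 fell, although the summed levels of these groups overlapped. For Pklr, red cell markers summed to 764 to 1026, 529 to 997, 1744 to 2122 and 542 to 2339 FPKM in the same order of groups, with 9 of 17 tested, and Rhag was near 0 in every library. Of the 9, 0 rose and 3 fell after injury alone, and 0 were called after hypoxia alone, with a median of 1.02. In preconditioned against normoxic RIRI 3 rose and 0 fell, with a median of 0.62, although the summed levels of these groups overlapped. The 3 were Slc4a1, an anion exchanger, by 1.73, Bpgm by 0.46 and Klf1 by 0.42. Whether the Slc4a1 reads came from red cells was not tested. Against preconditioned sham 0 rose and 2 fell, Slc4a1 and Klf1. For Serpina10, the liver marker Alb was at 2.63, 2.48, 3.25 and 2.57 FPKM in the same order, and Ahsg and Cps1 were near 0 in every library. Of 11 tested liver markers 3 rose in preconditioned against normoxic RIRI, Apoc3 by 2.91, Apoa1 by 0.74 and Apoa2 by 0.35, and 2 fell, Cyp2e1 and Trf. After injury alone 4 of the 11 liver markers rose and 4 fell, with a median of -0.08. The fibrinogen genes Fga, Fgg and Fgb rose by 3.95, 4.64 and 4.21, and Trf rose too, while Apoa2, Cyp2e1, Ttr and Apoc3 fell. Neutrophil markers summed to 133 to 295 FPKM in normoxic RIRI and 23.9 to 111 in preconditioned RIRI, and tubular injury genes, 18 of 18 higher after injury alone, included 16 that fell in preconditioned against normoxic RIRI. The part of these cell types in the levels of the 5 genes was not tested.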

How the data were processed

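Per the labels, RNA from frozen kidney (TRIzol) went into VAHTS Universal V10 libraries that were read on a DNBSEQ-T7. The authors deposited 1 table of FPKM for 12 libraries; the submitters' processing notes name mm10, HTSeq and DESeq2 but give no version and no role. The aligner is not given in the sources used here, nor is the annotation. Whole reads could be recovered from the FPKM steps for 25548 of 25553 genes at a tolerance of 1e-06. They were used for depth and for 1 alternative.

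Values were tested as log2(FPKM + 1), with a pseudocount of 1, by limma 3.58.1 in R 4.3.3 with a mean-variance trend. A single fit of 4 group means covered all 12 libraries, so groups of 3 mice shared 1 estimate of the spread. Benjamini-Hochberg adjustment ran over 12357 genes, and a gene was called at an adjusted p under 0.05. The script was tested on simulated data. The 5 genes and all gene lists were chosen with earlier results of these data known. Named besides the 5 were fixed paralogs and partners, up to 4 called genes per list and comparison by smallest adjusted p, the 3 closest genes by correlation, and neighbours within 100 kb. Positions and promoter sequences came from RefSeq (GRCm38.p6), which held 24328 of the symbols, and overlaps and exons from GENCODE M21. Alternatives changed the pseudocount, filter, scaling, libraries fitted, trend and replicate block, or left out each library. Some genes that the rule would name are not reported here.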

Additional observations from a re-analysis of the deposited data

Results flagged for a closer look

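Npl was lower in every normoxic RIRI library than in every normoxic sham library. It was higher in every preconditioned RIRI library than in every preconditioned sham library. The rule fixed the direction of the rise by the means and favoured the low normoxic RIRI values, so this is a description only. The injury difference in preconditioned mice exceeded that in normoxic mice by 2.08 on the log2 scale, and this difference was not tested, because the gene was chosen on it.

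Among partners and neighbours of the 5 genes, the same difference of injury responses was tested in limma, which called 23.9% of all tested genes. Most of these partners and neighbours were not called, among them Spns2 (limma adjusted p = 0.0720), Amdhd2 (0.0843) and all 10 tested neighbours of Pklr. Only called genes are listed next, and nothing is read from their number. The difference was -0.44 ± 0.13 (SE) for Pkm (limma adjusted p = 0.0353) and 1.20 ± 0.21 for Mlxipl (limma adjusted p = 0.0028). Near Serpina10 it was 1.56 ± 0.37 for Serpina1f (limma adjusted p = 0.0121). Near Spns3 it was 0.69 ± 0.21 for Smtnl2 (limma adjusted p = 0.0338), 1.03 ± 0.20 for Ggt6 (0.0047), -0.59 ± 0.14 for Mybbp1a (0.0109) and -0.45 ± 0.11 for Ube2g1 (0.0161). The calls of Pkm and Smtnl2 held in 13 and 14 of 21 alternatives, with adjusted p of up to 0.0821 and 0.0845 on leaving out 1 library or the filter; each was lost without any of 7 and 6 libraries.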

How the results depend on the processing

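Directions of differences that involve preconditioned RIRI were fixed by how the 5 genes were chosen. Serpina10 against preconditioned sham moved to 5.81 with a pseudocount of 0.1 and 6.23 with voom. Called differences of Serpina10 and Npl after injury alone were called in all 21 alternatives each. Differences near 0 changed sign: Nuak2 after injury alone to -0.00826 with median-ratio scaling, -0.0353 with quantile scaling and -0.0511 to 0.294 leaving out 1 library, Pklr after injury alone to -0.192 to 0.323, and Serpina10 after hypoxia alone to -0.0998 to 0.0146 leaving out 1 library. Uncalled differences between preconditioned RIRI and another group did so too: Proz against normoxic RIRI, -0.00382 to 0.271 leaving out 1 library, and against preconditioned sham Mlxipl, -0.280 to 0.0283, and Spns1, -0.00463 with median-ratio and -0.0304 with quantile scaling. Of 50 called differences of named partner, list and neighbour genes, 41 were called in every alternative and 9 were not; these were added after seeing the data. Genes called after hypoxia alone went from 52 to 31 with a pseudocount of 0.1, to 303 with only the compared groups fitted and to 23 to 80 leaving out 1 library; those in preconditioned against normoxic RIRI went from 5203 to 3373 with only the compared groups. The share of calls that were higher was 58.7% there, against 44.6% with median-ratio and 49.8% with quantile scaling. It was 63.0% against preconditioned sham, with 52.3% and 51.7%, and 44.2% after hypoxia alone, with 21.5% and 25.0%.

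Replicate numbers showed no clear pairing of the mice: 4 of 18 same-numbered pairs correlated above 0.1, and 5 of 12 libraries matched best with their own number. Such correlations, from 3 libraries a group, cannot settle whether the numbers mark something the mice shared. With the replicate block 8819 genes were called after injury alone, 35 after hypoxia alone, 5057 and 6331 in preconditioned RIRI against normoxic RIRI and preconditioned sham, and 2700 in the difference of injury responses. With 3 mice a group, small differences could be missed, and Serpina10 in sham rests on few reads.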
